A study of Mus musculus with 18 samples.

Results

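Axon guidance ligands and receptors were examined in mouse dorsal root ganglia, which hold the cell bodies of sensory neurons, after injury to either branch of their axons. The 66 genes were taken from the 15730 genes of the deposited count table by symbol: class 3 to 7 semaphorins, plexins, neuropilins, netrins, the Unc5 netrin receptors, Slits, Robos, ephrins and Eph receptors. They comprised 35 ligand genes and 31 receptor genes, with a lowest mean count of 11.7 per sample. The filter on low counts removed none of the 15730 genes.

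RNA was sequenced from lumbar ganglia of C57BL/6 mice aged 6 to 8 weeks, 24 hours after surgery, in 18 samples that each pooled ganglia of 2 mice. SNA_Saline was sciatic nerve axotomy with saline, and Sham_Saline was its sham operation with saline. SNA_NAC was sciatic nerve axotomy with 30 mM N-acetyl-cysteine (NAC, a thiol antioxidant), and Sham_H2O2 was the sham operation with 13 mM hydrogen peroxide. DCA was axotomy in the dorsal columns of the cord, where the central branches of these neurons ascend. LAM was laminectomy alone, which opens the spine by removing bone. Each group had 3 samples, and the labels name no transgene or mutation. The tissue was whole ganglion, so a lower share of one cell type and less RNA per cell of that type cannot be told apart.

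Guidance cues steer growing axons by attraction or repulsion. Semaphorins act through plexins, the secreted class 3 proteins together with neuropilins; netrins act through Dcc and the Unc5 receptors, Slits through Robos, and ephrins through Eph receptor tyrosine kinases on neighbouring cells. In adult sensory ganglia these genes are expressed by neurons, glia and blood vessels, and several are known for limiting axon growth after injury.

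Deposited counts per sample summed to between 6472476 and 42435331. All 10 sensory neuron markers were detected in each sample, led by Uchl1 with a mean of 1033 FPKM (fragments scaled to transcript length and library size) and Tubb3 with 665 FPKM. Endothelial markers (7 genes) summed to 114 to 118 CPM (counts scaled to a common library size) in Sham_Saline and 111 to 112 CPM in SNA_Saline. Skeletal muscle markers (6 genes) summed to 1213 CPM in Sham_Saline replicate 2 and 6.58 CPM in Sham_Saline replicate 3; their part in the results below was not tested. Sham_Saline replicate 2 was the highest of the 18 samples for 34 of the 66 guidance genes, Sham_Saline replicate 1 for 13, and Sham_H2O2 replicate 3 was the lowest for 19. The median SD of the guidance genes between replicates, in log2 CPM, was 0.413 in Sham_Saline, against 0.227 in SNA_Saline, 0.178 in SNA_NAC, 0.283 in Sham_H2O2, 0.136 in LAM and 0.297 in DCA. Comparisons that use Sham_Saline are therefore also given without its replicates where that changes a call.

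Levels per unit length were compared over the 66 features that also had counts. Plxnc1, the receptor for Sema7a, had the highest level of these 66 features, with a mean of 42.4 FPKM over the 18 samples (lowest 30.4, median 42.7, highest 53.5). Sema3b, a secreted class 3 semaphorin, followed with a mean of 26.8 FPKM, and Efna1, a membrane-tethered ephrin-A, with 15.6 FPKM. Sema7a, a ligand held to the membrane by a lipid anchor, had a mean of 14.4 FPKM (7.59 to 27.3), and Sema4f, a transmembrane class 4 semaphorin, 13.1 FPKM. Nrp1, the binding partner of class 3 semaphorins, stood at 12.2 FPKM, and Efnb2, a transmembrane ephrin, at 9.84 FPKM. Neighbours in this order overlapped in their ranges over the samples, so the order of adjacent genes is not firm.

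Receptors for Slits, netrins and ephrins were less abundant on the same scale. Robo2 led the Robo receptors with a mean of 9.67 FPKM, Ephb6, an Eph receptor without kinase activity, led the EphB group with 4.21 FPKM, Epha5 led the EphA group with 1.40 FPKM, and Unc5c led the netrin receptors with 1.36 FPKM. Slit1 was the highest of the Slits at 4.13 FPKM, and Ntng1 (netrin-G1, a membrane-anchored relative that does not use Dcc) was listed highest of the netrins at 7.11 FPKM. The level of Ntng1 is uncertain, because a second feature of that symbol in the deposited FPKM table, with no row of counts, had a mean of 115.8 FPKM, above that of Plxnc1. The lowest member was Epha1, at 0.195 FPKM. A further 5 family members had FPKM values but no row of counts: Dcc, Robo3, Sema3a, Efna4 and Epha8, none above 0.407 FPKM in any sample.

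**Figure D1:**
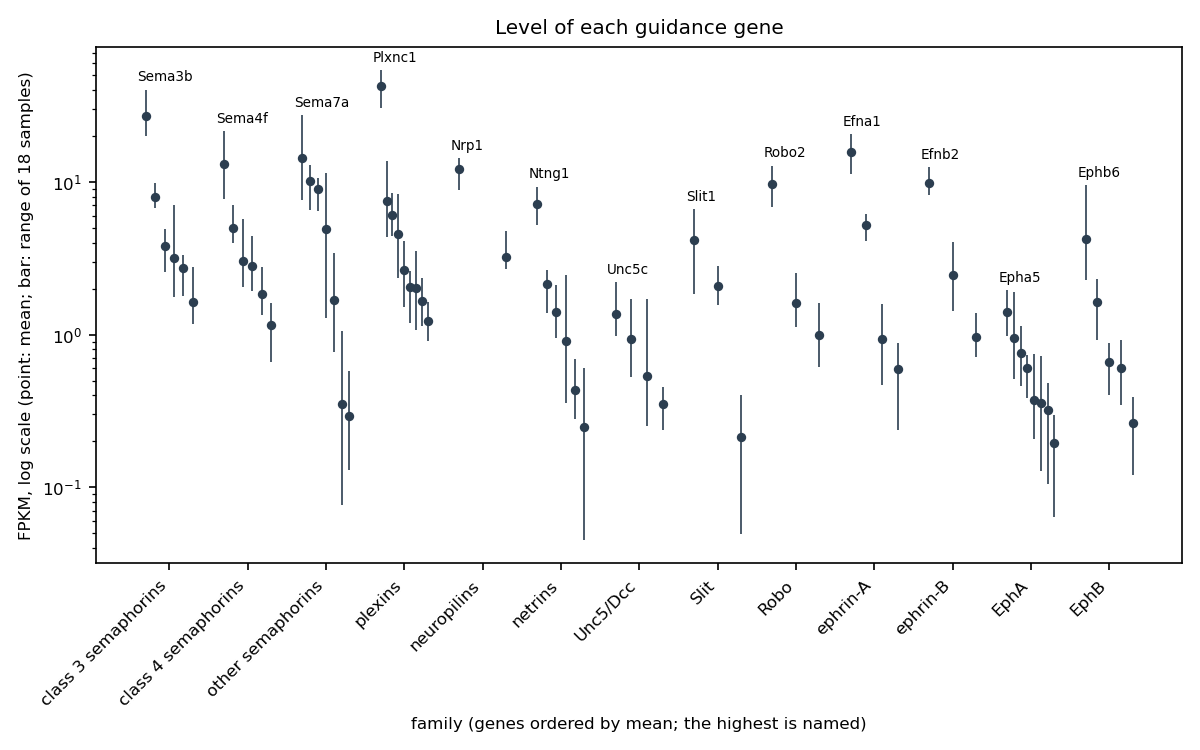
Level of each of the 66 guidance genes in FPKM on a log axis, by family. Points are means of 18 samples and bars run from the lowest to the highest sample; among these features, which leave out the second Ntng1 feature, Plxnc1 has the highest mean at 42.4 FPKM, and the highest gene of each family is named.

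Sciatic axotomy was compared with its sham to ask which guidance genes change in the ganglion when the peripheral axon is cut. The ligand gene Sema6a rose 4.12-fold and the receptor gene Unc5b fell 2.17-fold, and no other gene of the 66 passed the test. Thus 1 of 66 guidance genes passed in the upward direction, beside 2.16% of all 15730 genes, and 1 of 66 in the downward direction, beside 0.572% of all genes (edgeR quasi-likelihood test, adjusted p under 0.05); in both directions together the shares were 3.03% and 2.73%.

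Sema6a (ENSMUSG00000019647) encodes a transmembrane semaphorin that binds plexin-A2 and plexin-A4. It stood at 24.4, 20.9 and 21.4 CPM in the 3 Sham_Saline samples and at 91.5, 104 and 79.2 CPM in the 3 SNA_Saline samples, means of 22.2 ± 1.90 (SD, n = 3) and 91.7 ± 12.6 (SD, n = 3). Every injured sample was more than 3 times as high as any sham sample, and the groups did not overlap. The log2 fold change was 2.04 (SE 0.13), with an adjusted p of 1.55e-07 in edgeR's quasi-likelihood test, the second smallest p of the 15730 genes. The call held in each of 14 alternative analyses, with log2 fold changes from 1.94 to 2.14. The alternative with no filter repeats the main fit, because the filter removed no gene. Per unit length, Sema6a ranged from 1.28 to 11.5 FPKM over the 18 samples, a span of 8.94-fold. The genes with larger spans, Sema6b (13.8-fold) and Ntn5 (13.3-fold), stayed below 1.1 FPKM.

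Unc5b (ENSMUSG00000020099; GRCm38, chr10:60762593-60831581, minus strand) encodes a netrin receptor associated with repulsion, which is also expressed by endothelium. Its level was 6.34, 10.02 and 6.79 CPM in Sham_Saline and 3.70, 3.24 and 3.71 CPM in SNA_Saline. Each of the injured samples lay below each of the sham samples, and Sham_Saline replicate 2 was the highest of all 18 samples. The log2 fold change was -1.12 (SE 0.24), with an adjusted p of 0.0160 by edgeR. This call was lost without Sham_Saline replicate 2 (-0.88, edgeR adjusted p 0.0954), without SNA_Saline replicate 1 (-1.15, 0.0791) or replicate 2 (-1.07, 0.0826), and when only those groups entered the fit (-1.12, 0.163). With the offsets for base composition described below, the value was -0.62 with an edgeR adjusted p of 0.0109. The sums of the 7 endothelial markers are given above; singly they had log2 fold changes from -0.60 to 0.32, 4 of them negative and 2 with an unadjusted p under 0.05, and 0 passed (edgeR). Cdh5, an endothelial cadherin, was listed at 5.13, 4.63 and 4.35 FPKM in Sham_Saline and 3.32, 3.48 and 3.76 FPKM in SNA_Saline, without overlap. The other way, 3 of the 7 markers had positive log2 fold changes. The median over the 7 was -0.05, so Cdh5 does not stand for the list. The part of the endothelial markers in the Unc5b result was not tested.

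**Figure D2:**
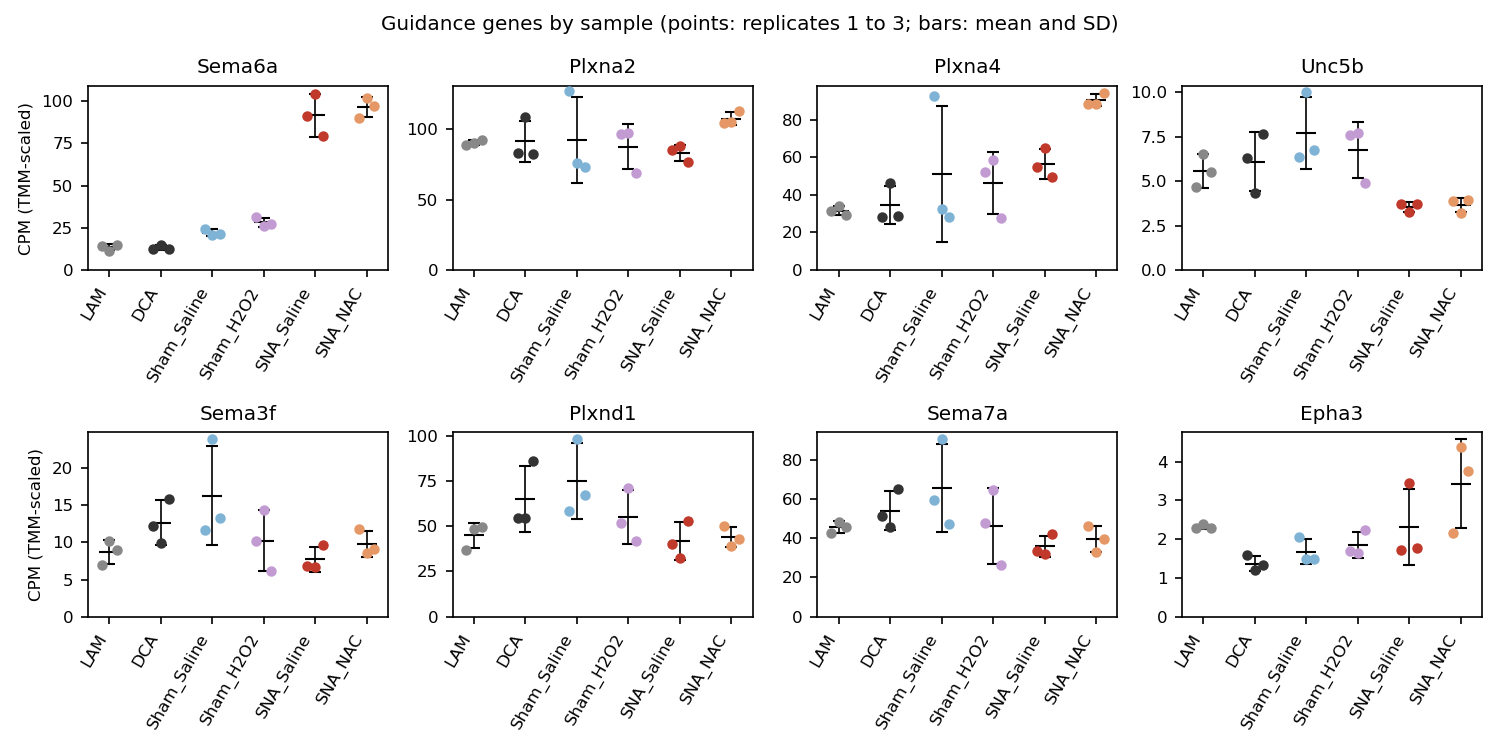
CPM of 8 guidance genes in each of the 18 samples by group, with mean and SD bars (n = 3). Sema6a is at 79.2 to 104 CPM in the 6 samples with sciatic axotomy and at 31.4 CPM or below in the other 12; Unc5b is lowest in those same 6 samples.

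The next 2 genes by p did not pass. Sema3f, a secreted repellent that acts through neuropilin-2, stood at 11.7, 23.96 and 13.3 CPM in Sham_Saline and 6.80, 6.70 and 9.69 CPM in SNA_Saline, a log2 fold change of -1.08 (SE 0.30, edgeR adjusted p 0.0707). The groups did not overlap, and Sham_Saline replicate 2 was the highest of the 6 samples. Plxnd1, the receptor for Sema3e, stood at 58.6, 98.4 and 67.3 CPM in Sham_Saline and 40.1, 32.2 and 53.03 CPM in SNA_Saline, with a log2 fold change of -0.84 (SE 0.24, edgeR adjusted p 0.0817). Sema3f passed in 4 and Plxnd1 in 3 of the 14 alternatives, listed with the other settings at the end. Unc5a, a further netrin receptor, is given because its estimate was the most negative of the 66, a choice made after its values were seen. It stood at 2.57, 7.16 and 2.58 CPM in Sham_Saline and 1.32, 1.08 and 2.57 CPM in SNA_Saline, groups that all but met at their nearest values, with a log2 fold change of -1.30 (SE 0.46, edgeR adjusted p 0.138).

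Among the 66 genes, 52 had a negative log2 fold change after sciatic axotomy and the median was -0.27, against -0.03 over all genes tested. Unadjusted p was under 0.05 for 20 of them, 19 of these lower, beside 12.3% of all genes in the downward direction. Groups did not overlap for 10 lower genes, beside 8.8% of all genes, and for 1 higher gene, beside 10.3% of all genes. By family, all 7 ephrins, all 6 class 4 semaphorins, all 3 Slits and all 5 EphB receptors had negative values in the fit without the GC offsets described next. Apart from Sema6a and Unc5b these are directions of estimates that did not pass the test. Sham_H2O2, which had no axotomy, gave the same split against the same Sham_Saline samples: 52 of 66 negative, with a median of -0.23. Both comparisons use those sham samples, so the equal splits are not independent. The part of axotomy in the downward direction was not tested. After sciatic axotomy several marker lists also had a negative median log2 fold change. It was -0.31 for the 10 sensory neuron markers (7 negative) and -0.26 for the 6 Schwann cell markers (4 negative). For the 6 skeletal muscle markers it was -1.65 (6 negative), and for the 5 red cell and neutrophil markers -0.25 (3 negative). Medians were -0.08 for connective tissue and -0.05 for endothelium, and positive for satellite glia (0.12) and macrophages (0.18). Of the 5 genes listed for cord tissue only 2 had counts, Gfap and Aqp4, and Olig1, Olig2 and Mog did not. Their log2 fold changes were 1.58 for Gfap, which passed (edgeR), and 0.31 for Aqp4, a median of 0.95. These 2 genes do not stand for cord tissue. None of the markers in the lists with a negative median passed (edgeR). The neuron markers summed to 9487 to 13830.3 CPM in Sham_Saline, highest in replicate 2, and 8990.1 to 9922 CPM in SNA_Saline. The Schwann cell markers summed to 6281 to 10338 CPM and 7943 to 8568 CPM. The part of any of these markers in the guidance genes' estimates was not tested.

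These directions moved with base composition. The median GC share of the longest transcript was 56.0% for 65 of the guidance genes and 49.6% for all genes with a transcript in the annotation (GENCODE M21). Across those 65 genes the correlation of the GC share with the sciatic log2 fold change was -0.62, and over all 15648 genes with a value it was -0.53; the genes share the same 6 libraries, so the value is a description. The slope of log2 level on GC share was steepest in Sham_Saline replicate 2, the sample that was highest for 34 guidance genes. When offsets for GC share and transcript length were added to the fit, the correlation over the 65 genes was -0.13, the median log2 fold change of the 66 was -0.04, and 38 were negative. The offsets were fitted to the GC and length trends of these same samples, so smaller values follow by construction. They do not show why the levels went with GC share, which was not tested.

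**Figure D3:**
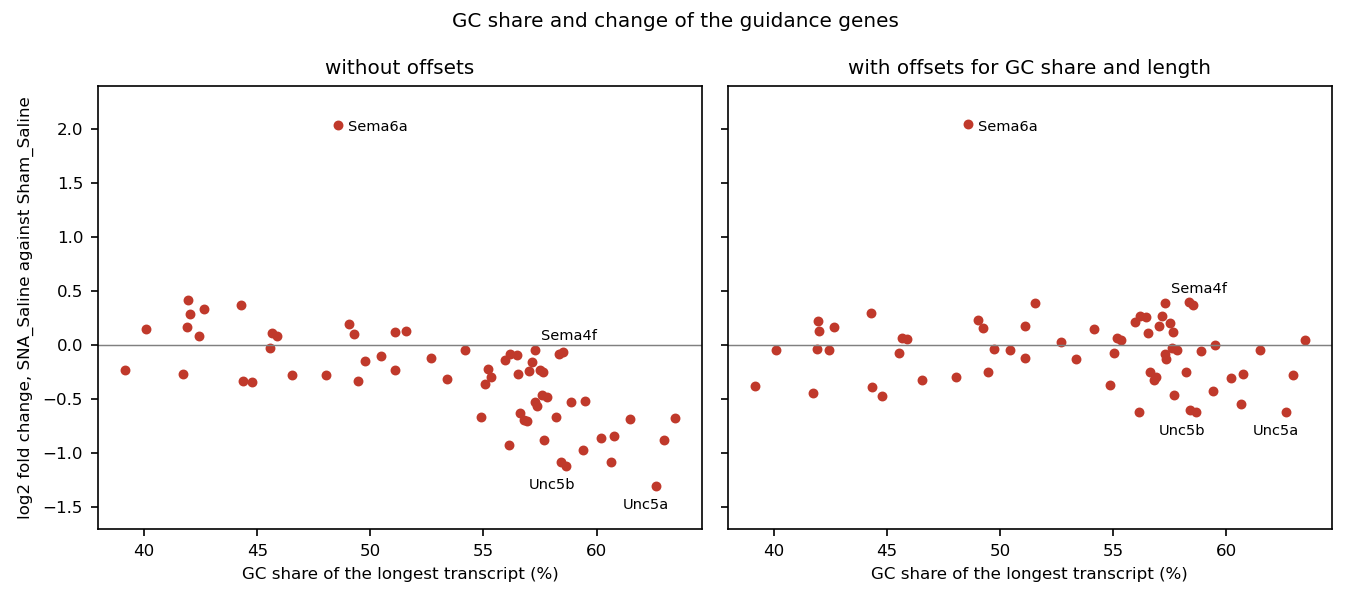
Log2 fold change of 65 guidance genes after sciatic axotomy against the GC share of their longest transcript in percent, without (left) and with (right) offsets for GC share and length. Without offsets the correlation is -0.62 and with them -0.13, a change that the offsets bring about by construction. Sema6a lies at 2.04 and 2.05.

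With these offsets 6 guidance genes passed in the sciatic comparison (edgeR), beside 7.44% of all genes. Sema6a (2.05) and Sema4f (0.39, adjusted p 0.004598) were higher, and Sema3f (-0.60, adjusted p 0.00595), Unc5b (-0.62), Unc5c (-0.39, adjusted p 0.0256) and Ntng1 (-0.32, adjusted p 0.0413) were lower. Without offsets Sema4f had a log2 fold change of -0.045 (SE 0.24), so its call rests on the correction. Its counts were 59.8, 111 and 63.9 CPM in Sham_Saline and 71.4, 64.96 and 90.9 CPM in SNA_Saline, and the groups overlapped. Unc5c, a further netrin receptor, stood at 26.6, 13.3 and 13.5 CPM in Sham_Saline and 13.9, 16.97 and 11.98 CPM in SNA_Saline, also overlapping.

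The upstream sequences of the guidance genes were GC-rich as well. RefSeq entries of the GRCm38.p6 build were found for 57 of the 66 genes, with 73 promoters. The 250 bases before the start had a median GC share of 64.4%, against 52.4% over 32851 promoters. Sema6a and Sema3f had no entry, so their upstream sequences were not searched for the motifs below. The window of Unc5b is shown because Unc5b was the guidance gene that fell; it lies at chr10:60831582-60831831 on the minus strand, and capitals mark GC boxes (GGGCGG on either strand).

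Unc5b: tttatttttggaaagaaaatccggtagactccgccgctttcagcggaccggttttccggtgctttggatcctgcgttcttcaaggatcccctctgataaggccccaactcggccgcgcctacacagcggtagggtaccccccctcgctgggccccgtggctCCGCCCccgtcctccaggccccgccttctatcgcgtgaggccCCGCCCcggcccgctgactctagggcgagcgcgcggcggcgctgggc

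This window has a GC share of 66.8% and 2 GC boxes. A GC box was present in 71.2% of the 73 guidance promoters and in 32.7% of all promoters. The motif is made of G and C only, and the background was not matched for GC share. These shares are therefore a description, not a result apart from the GC share of the windows. The AP-1 motif TGACTCA, searched on both strands, was present in 2 of the 73 (2.74%) and in 4.46% of all, and the cyclic AMP response element TGACGTCA in 1 of the 73 (1.37%) and in 1.55%. Neither of the last 2 motifs was in the Unc5b window. A match of letters describes the window and does not show binding.

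Injury of the central branch was compared with laminectomy to ask whether the same genes respond when the axon is cut inside the spinal cord. No guidance gene passed the test, and the same holds for all 15730 genes, of which 0% passed (edgeR). Unadjusted p was under 0.05 for 4 guidance genes, beside 5.04% of all genes, and DESeq2 also called 0 guidance genes. The median log2 fold change of the 66 was 0.10, against 0.00 over all genes, and the groups did not overlap for 16, beside 21.7% of all genes.

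Sema6a was at 14.4, 11.5 and 14.6 CPM in LAM and 12.7, 15.1 and 12.7 CPM in DCA. These 2 groups overlapped and held the 6 lowest values of the series, with a log2 fold change of -0.0057 (SE 0.13). Unc5b stood at 4.66, 6.56 and 5.51 CPM in LAM and 6.30, 4.35 and 7.66 CPM in DCA, again overlapping, with a log2 fold change of 0.14 (SE 0.23).

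The 2 guidance genes with the smallest p in this comparison were Slit3, a secreted repellent, and Epha3, a receptor for ephrin-A ligands. Slit3 was measured at 0.311, 0.922 and 0.873 CPM in LAM and 1.39, 1.45 and 2.38 CPM in DCA (1.20 on the log2 scale, SE 0.35, edgeR adjusted p 0.624). Its counts were as low as 3 reads in a sample, so counting error is large. Epha3 was measured at 2.28, 2.39 and 2.28 CPM in LAM and 1.58, 1.20 and 1.33 CPM in DCA (-0.73, SE 0.30, edgeR adjusted p 0.624). Both groups of values were separate in both genes, but neither gene passed.

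The difference between the 2 injuries was tested directly as the sciatic change minus the dorsal column change. Sema6a was the only guidance gene of 66 to pass, beside 1.61% of all genes (1.23% in the upward direction), with a difference of 2.05 on the log2 scale (SE 0.19, edgeR adjusted p 4.34e-05). It ranked second by p among all genes and passed in each of 20 alternatives. Plxnd1 (-1.37, SE 0.34, edgeR adjusted p 0.0563) and Unc5b (-1.26, SE 0.33, edgeR adjusted p 0.0642) did not pass by edgeR. DESeq2 called both, Plxnd1 with an adjusted p of 0.00762 and Unc5b with 0.0158, and each passed in 3 of the 20 alternatives. Without Sham_Saline replicate 1 the difference of Unc5b was -1.39 with an edgeR adjusted p of 0.0197, and 22 guidance genes passed, beside 29.2% of all genes. Without SNA_Saline replicate 3 the count was 4, and without DCA replicate 2 it was 2. The shares over all genes in these 2 fits are not given here, so the 2 counts are not read as a result.

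**Figure D4:**
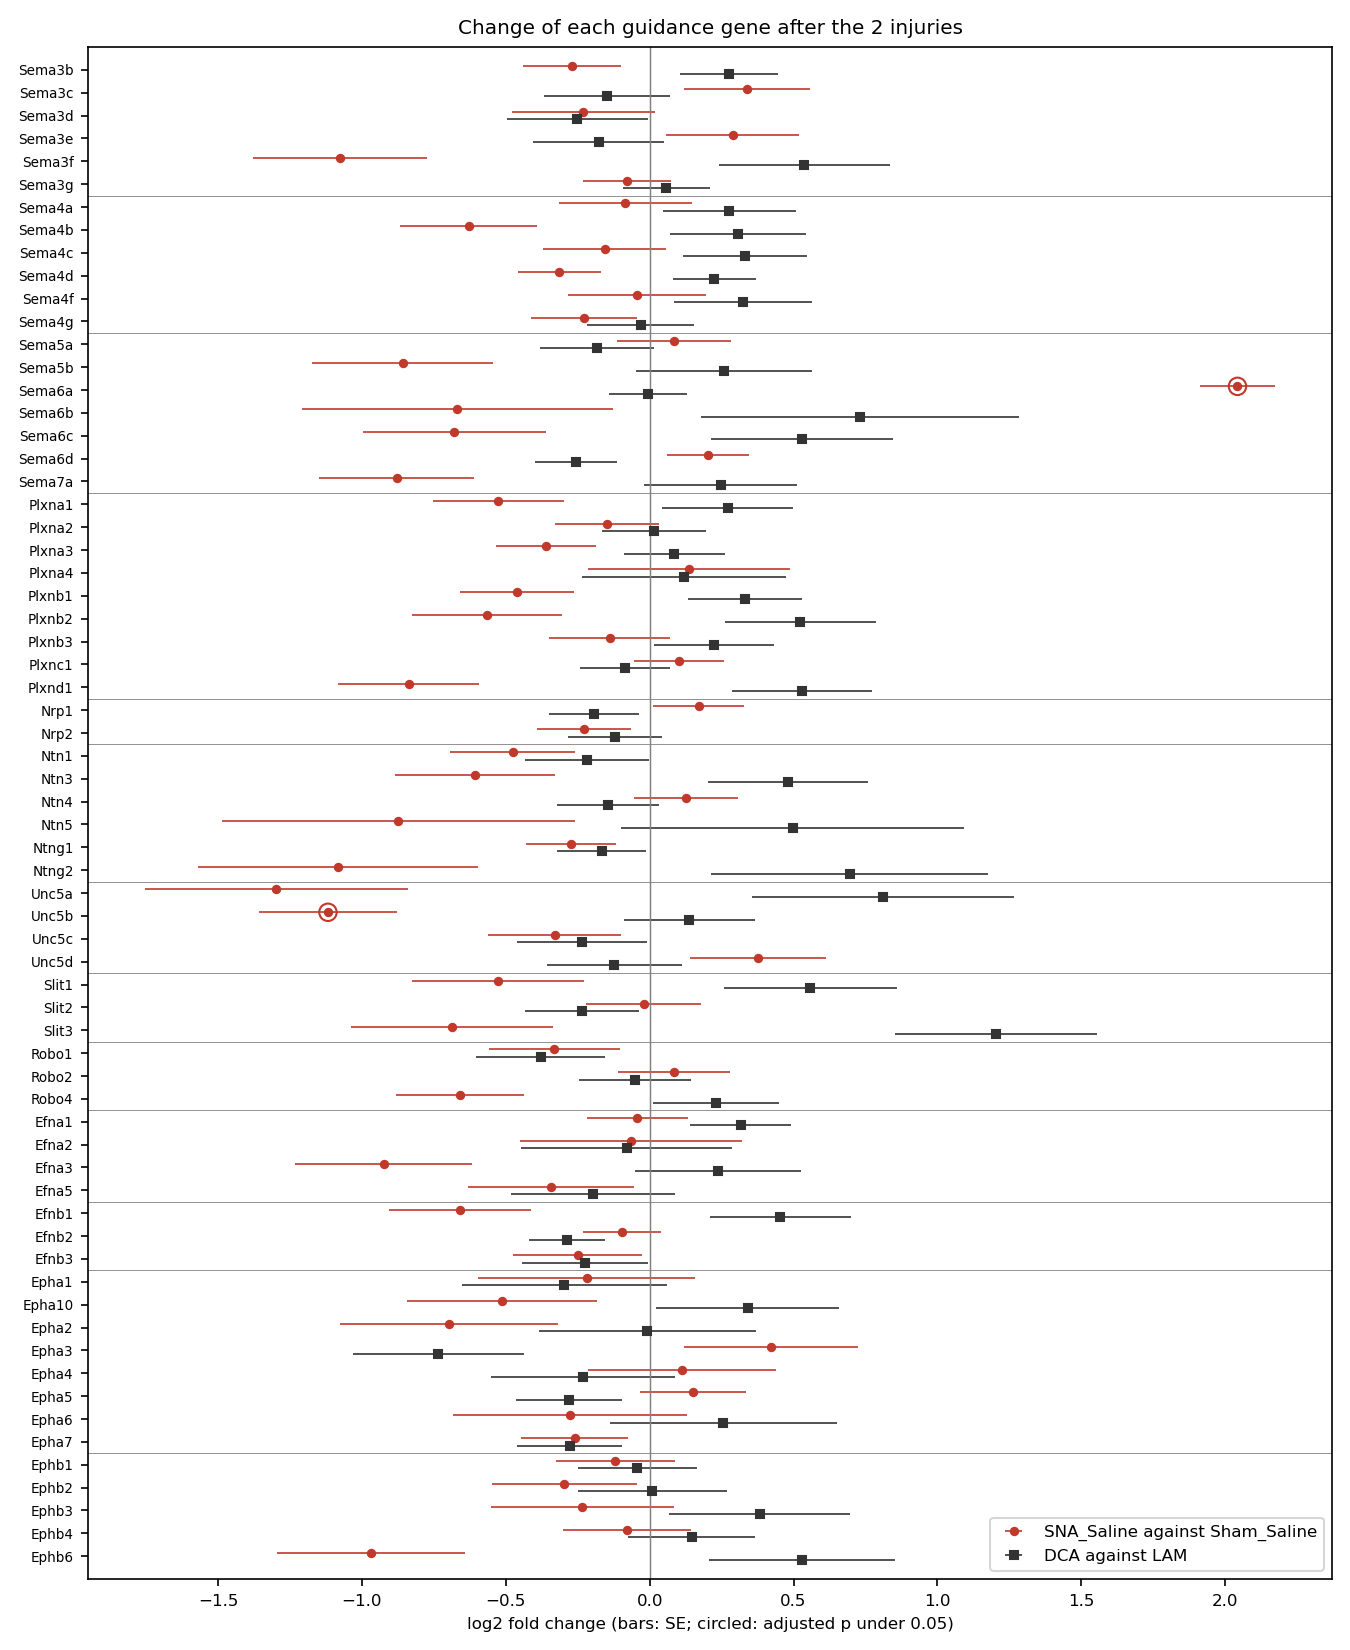
Log2 fold change with SE of each of the 66 guidance genes after sciatic axotomy (circles) and dorsal column injury (squares), by family. Circled points passed the test: Sema6a at 2.04 and Unc5b at -1.12, both for sciatic axotomy.

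The controls of the 2 injuries were compared with each other as well. No gene of the 66 passed between Sham_Saline and LAM, beside 0.0699% of all genes (edgeR). Unadjusted p was under 0.05 for 28, beside 30.3% of all genes, and DESeq2 called 9, beside 6.88% of all genes. The median log2 difference was 0.40, higher in Sham_Saline, against 0.02 over all genes, and the correlation with GC share over 65 genes was 0.79. Beside it, the median was 0.31 for the sensory neuron markers and 0.59 for the Schwann cell markers. It was 1.48 for skeletal muscle, 0.57 for red cells and neutrophils and 0.18 for endothelium. Medians were negative for satellite glia (-0.08), macrophages (-0.19), connective tissue (-0.06) and the 2 counted genes of the cord tissue list (-0.47). The part of these markers was not tested. With the GC and length offsets, which take out a GC trend by construction, the median was 0.00. In that fit 1 gene passed, beside 0.165% of all genes. Without Sham_Saline replicate 1 the count was 30, beside 31.8% of all genes.

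That 1 gene was Sema6a, at 24.4, 20.9 and 21.4 CPM in Sham_Saline and 14.4, 11.5 and 14.6 CPM in LAM, groups that did not overlap. Its log2 difference was 0.72 (SE 0.13) with an edgeR adjusted p of 0.0599, and 0.70 with an adjusted p of 0.0107 under the offsets. The largest group means of Sema6a after the 2 axotomy groups were thus in the 2 sham groups of the nerve operation, and the smallest in LAM and DCA. Slit1, a secreted Slit, stood at 38.9, 39.2 and 21.1 CPM in Sham_Saline and 14.1, 15.2 and 15.8 CPM in LAM (1.14, SE 0.30, edgeR adjusted p 0.104). It passed with DESeq2 (adjusted p 0.0265) and without Sham_Saline replicate 1 (edgeR adjusted p 0.0333). Its estimate ran from 0.48 to 1.37 over 14 alternatives.

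NAC was given with sciatic axotomy to ask whether an antioxidant changes the injury response. No guidance gene passed between SNA_NAC and SNA_Saline, beside 0% of all genes, and DESeq2 called 0. Unadjusted p was under 0.05 for 0 guidance genes by edgeR, beside 2% of all genes. Over the alternatives that count ran from 0 to 6, the most with only these groups in the fit, and the shares over all genes there are not given here. The median log2 difference of the 66 was 0.11, against -0.003 over all genes, and 47 were positive. Sema6a was at 90.1, 102 and 97.1 CPM in SNA_NAC, overlapping SNA_Saline, with a log2 difference of 0.073 (SE 0.13). Unc5b was at 3.86, 3.19 and 3.94 CPM in SNA_NAC, also overlapping, with a difference of 0.049 (SE 0.24). The lack of a call does not show that the groups were equal.

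The smallest p in this comparison belonged to Nrp2, the neuropilin of Sema3f, and to Epha3. Nrp2 stood at 27.1, 31.3 and 26.4 CPM in SNA_Saline and 35.5, 33.6 and 37.6 CPM in SNA_NAC (0.33, SE 0.16, edgeR adjusted p 1.00), without overlap. Epha3 stood at 1.72, 3.46 and 1.78 CPM in SNA_Saline and 2.16, 4.38 and 3.77 CPM in SNA_NAC (0.58, SE 0.29, edgeR adjusted p 1.00), with overlap.

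Set against Sham_Saline, the samples that the previous sciatic comparison also used, SNA_NAC gave the same 2 guidance genes. Sema6a had a log2 fold change of 2.12 (SE 0.13, edgeR adjusted p 1.40e-07) and Unc5b of -1.07 (SE 0.23, edgeR adjusted p 0.0145), 1 gene higher beside 2.47% of all genes and 1 lower beside 0.846% (2 of 66 beside 3.32% in both directions). Without Sham_Saline replicate 1 the count was 35, beside 37.3% of all genes. The Unc5b call was lost without Sham_Saline replicate 2 (-0.83, edgeR adjusted p 0.103), without SNA_NAC replicate 2 (-0.99, 0.0882) or replicate 3 (-1.12, 0.0538), and with only those groups in the fit (-1.08, 0.130). Epha3, higher without overlap in SNA_NAC at 1.01 (SE 0.28), had an adjusted p of 0.0612 by edgeR.

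The plexins that bind Sema6a were read beside it for their known role. Plxna2 stood at 128, 76.3 and 73.1 CPM in Sham_Saline, 85.3, 88.1 and 76.9 CPM in SNA_Saline and 105, 105 and 113 CPM in SNA_NAC. Plxna4 stood at 92.8, 32.6 and 28.2 CPM in Sham_Saline, 54.9, 65.1 and 49.5 CPM in SNA_Saline and 88.5, 88.3 and 93.98 CPM in SNA_NAC. In both genes Sham_Saline replicate 1 was the highest sham sample, and for Plxna4 it lay above all 3 SNA_Saline samples while the other 2 sham samples lay below them. The sciatic log2 fold changes were -0.15 (SE 0.18) for Plxna2 and 0.14 (SE 0.35) for Plxna4, and neither passed. Without that library Plxna4 had a log2 fold change of 0.89 (edgeR adjusted p 0.0361) and Plxna2 of 0.16 (0.407). In SNA_NAC against Sham_Saline neither passed, Plxna4 at 0.81 (edgeR adjusted p 0.155) and Plxna2 at 0.22 (0.413). With the offsets Plxna4 passed there (0.84, edgeR adjusted p 0.0351), and without Sham_Saline replicate 1 both did, Plxna4 at 1.57 (edgeR adjusted p 0.00126) and Plxna2 at 0.53 (0.0120). With the library left out, 15 guidance genes passed in the sciatic comparison, beside 16.2% of all genes: 3 higher, beside 8.14%, and 12 lower, beside 8.06%.

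Peroxide was applied to the sham-operated nerve to ask whether an oxidant alone changes ganglion genes. No guidance gene passed against Sham_Saline, beside 0% of all genes (edgeR), DESeq2 called 0 guidance genes, and unadjusted p was under 0.05 for 7, beside 9.15% of all genes. Sema6a was at 31.4, 25.8 and 27.3 CPM in Sham_H2O2, above all 3 Sham_Saline samples, with a log2 fold change of 0.34 (SE 0.13, edgeR adjusted p 0.449). Ntn1, the founding netrin, stood at 11.9, 13.3 and 9.50 CPM in Sham_Saline and 6.08, 7.51 and 8.90 CPM in Sham_H2O2 (-0.64, SE 0.22, edgeR adjusted p 0.449), without overlap. Of the 66 genes, 52 had a negative log2 fold change, with a median of -0.23 against -0.02 over all genes. With the offsets 39 were negative and the median was -0.03. The correlation of log2 fold change with GC share over 65 guidance genes was -0.75 here and -0.05 with the offsets, which take out this trend by construction.

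The highest-level members of the families are given in each of the 6 groups. Plxnc1 was at 359, 319 and 334 CPM in LAM, 312, 372 and 271 CPM in DCA, 418, 240.3 and 279 CPM in Sham_Saline, 348, 328 and 335 CPM in Sham_H2O2, 342, 350.4 and 314 CPM in SNA_Saline and 369, 406 and 372 CPM in SNA_NAC. Sema3b was at 87.4, 118 and 106 CPM in LAM, 127, 104 and 147 CPM in DCA, 96.8, 172 and 143 CPM in Sham_Saline, 107, 107 and 98.5 CPM in Sham_H2O2, 110.3, 109.6 and 121 CPM in SNA_Saline and 114, 102 and 107 CPM in SNA_NAC. For Plxnc1 the lowest and highest samples were both in Sham_Saline, and for Sema3b the highest was Sham_Saline replicate 2.

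Among the ephrins and Eph receptors, Efna1 was at 22.98, 20.8 and 24.9 CPM in LAM, 27.5, 25.8 and 32.2 CPM in DCA, 24.8, 37.7 and 34.1 CPM in Sham_Saline, 28.8, 29.02 and 21.5 CPM in Sham_H2O2, 32.1, 24.97 and 36.6 CPM in SNA_Saline and 35.5, 27.97 and 31.7 CPM in SNA_NAC. Efnb2 was at 53.1, 49.2 and 53.98 CPM in LAM, 44.7, 47.4 and 36.3 CPM in DCA, 48.7, 35.9 and 38.7 CPM in Sham_Saline, 47.5, 38.4 and 44.2 CPM in Sham_H2O2, 39.3, 40.7 and 35.5 CPM in SNA_Saline and 36.5, 44.2 and 42.3 CPM in SNA_NAC, with its highest values in LAM. Epha5 was at 16.4, 14.04 and 15.2 CPM in LAM, 13.2, 14.1 and 10.3 CPM in DCA, 15.9, 9.85 and 13.8 CPM in Sham_Saline, 12.3, 13.3 and 10.8 CPM in Sham_H2O2, 13.7, 17.7 and 12.5 CPM in SNA_Saline and 15.1, 18.6 and 19.9 CPM in SNA_NAC. The groups overlapped in each gene between SNA_Saline and Sham_Saline. Ephb6 was at 10.6, 13.5 and 14.5 CPM in LAM, 16.7, 12.4 and 26.6 CPM in DCA, 14.8, 36.05 and 22.8 CPM in Sham_Saline, 13.8, 18.6 and 8.90 CPM in Sham_H2O2, 12.01, 10.4 and 15.2 CPM in SNA_Saline and 15.2, 10.6 and 15.3 CPM in SNA_NAC, and its Sham_Saline replicate 2 was the highest sample of the series.

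Nrp1 was at 77.6, 74.97 and 74.7 CPM in LAM, 70.2, 77.5 and 51.3 CPM in DCA, 84.3, 55.8 and 62.4 CPM in Sham_Saline, 75.9, 66.5 and 76.4 CPM in Sham_H2O2, 73.7, 83.4 and 71.00 CPM in SNA_Saline and 68.3, 84.5 and 84.2 CPM in SNA_NAC. Robo2 was at 179, 162 and 165 CPM in LAM, 160.3, 199 and 129 CPM in DCA, 209, 113 and 125 CPM in Sham_Saline, 173, 152 and 141 CPM in Sham_H2O2, 158, 184 and 134 CPM in SNA_Saline and 167, 186 and 181 CPM in SNA_NAC. Ntng1 was at 51.1, 42.7 and 46.3 CPM in LAM, 41.7, 48.3 and 34.98 CPM in DCA, 47.8, 33.3 and 31.9 CPM in Sham_Saline, 43.6, 39.6 and 34.01 CPM in Sham_H2O2, 33.1, 32.9 and 27.5 CPM in SNA_Saline and 32.9, 34.7 and 33.8 CPM in SNA_NAC. For Robo2 and Ntng1 the 3 SNA_NAC samples lay close together, whereas Sham_Saline replicate 1 stood above its 2 replicates in all 3 genes.

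Sema7a was at 42.4, 48.5 and 45.8 CPM in LAM, 51.5, 45.5 and 65.1 CPM in DCA, 59.5, 90.7 and 47.03 CPM in Sham_Saline, 47.6, 64.7 and 26.1 CPM in Sham_H2O2, 33.3, 31.99 and 41.9 CPM in SNA_Saline and 46.01, 32.9 and 39.4 CPM in SNA_NAC, higher in each Sham_Saline sample than in each SNA_Saline sample (-0.88, SE 0.27, edgeR adjusted p 0.0940). With edgeR on all 18 samples and no offsets, 0 of the 13 highest-level family members passed in any comparison. The calls of Sema4f, Unc5c and Ntng1 with the offsets are given above. DESeq2 called Sema7a after sciatic axotomy (adjusted p 0.0294), Slit1 between Sham_Saline and LAM (0.0265) and Ephb6 in the difference between injuries (0.0268). Without Sham_Saline replicate 1 each of the 13 passed (edgeR) in the sciatic comparison, in SNA_NAC against Sham_Saline or in Sham_Saline against LAM. In those fits 16.2%, 37.3% and 31.8% of all genes passed.

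**Figure D5:**
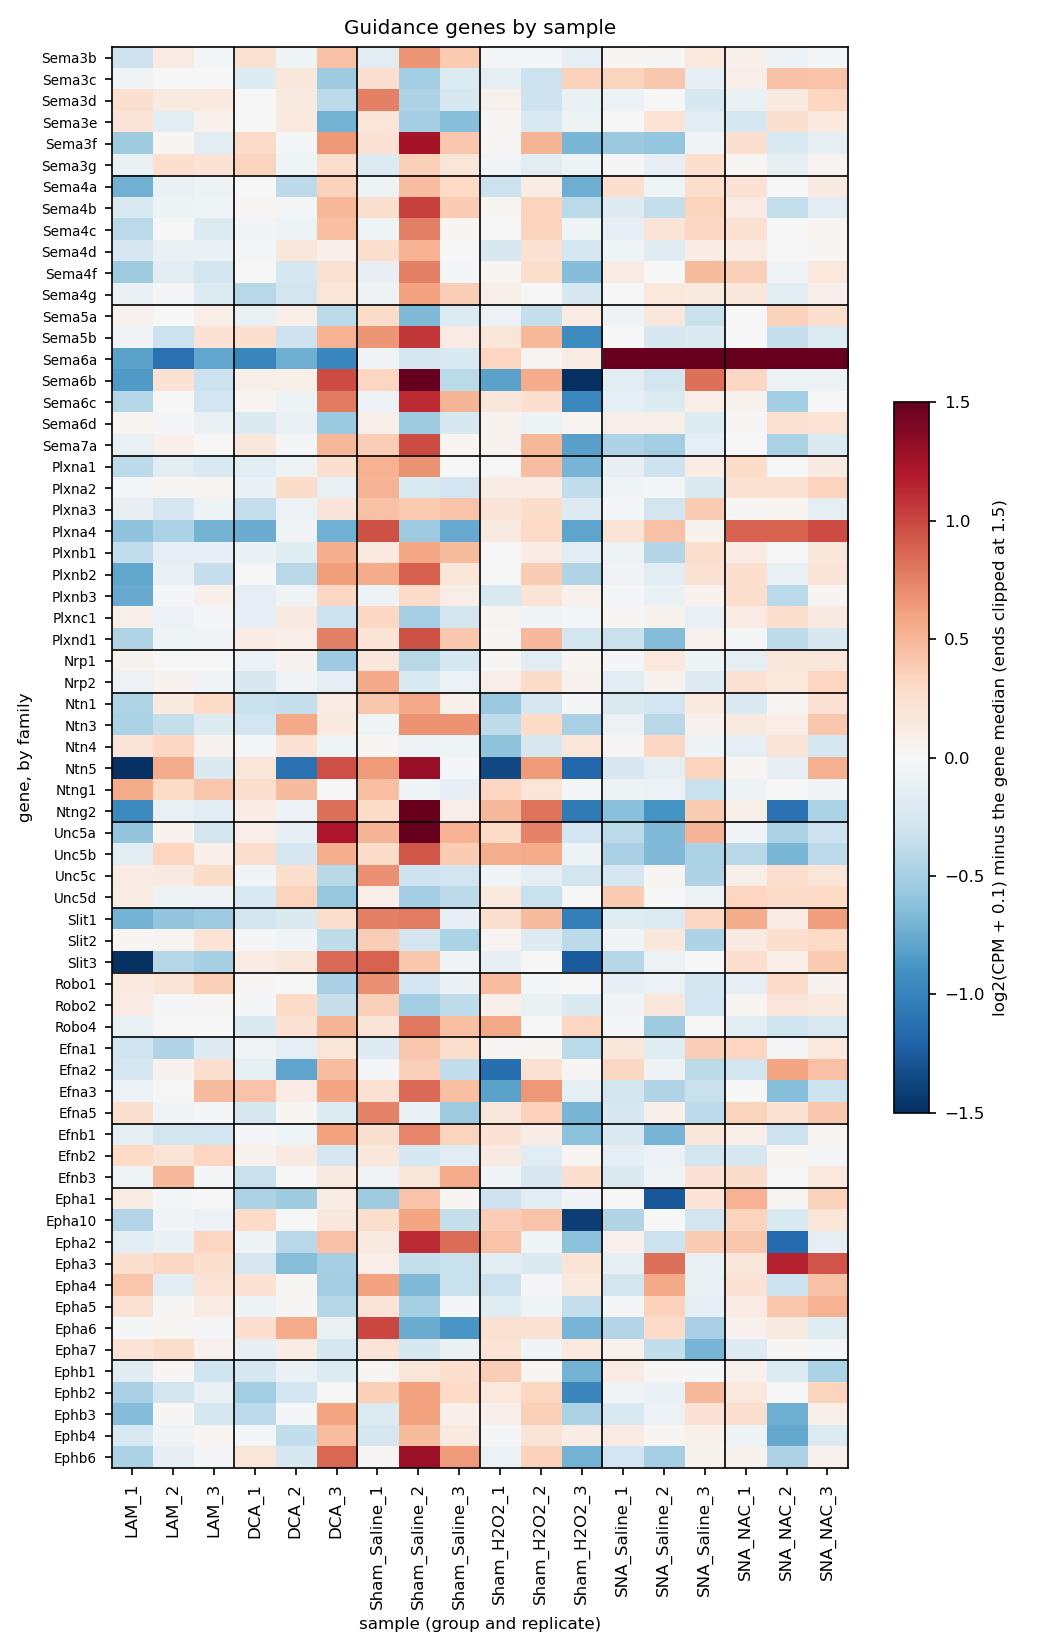
Log2(CPM + 0.1) of the 66 guidance genes in the 18 samples, each minus the median of the gene, with colours clipped at 1.5 either way. Sema6a stands out as high in the 6 samples with sciatic axotomy and low in LAM and DCA; Sham_Saline replicate 2 is highest for 34 genes.

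Co-receptors and other cues were followed as a separate list of 34 genes, 33 of them in the table. After sciatic axotomy 3 rose, beside 2.16% of all genes, and 1 fell, beside 0.572% (edgeR), with a median log2 fold change of -0.04 over the list. Flrt3, a membrane protein that binds Unc5 receptors and Robo1, was at 31.4, 23.8 and 25.4 CPM in Sham_Saline and 159, 162 and 122 CPM in SNA_Saline, a log2 fold change of 2.46 (edgeR adjusted p 2.88e-06). The groups were far apart, and the difference from the dorsal column injury was 2.34 (edgeR adjusted p 0.000498). Dscam, a cell adhesion protein that can act as a netrin receptor, was at 17.97, 13.01 and 12.8 CPM in Sham_Saline and 6.99, 8.00 and 8.63 CPM in SNA_Saline, -0.89 (edgeR adjusted p 0.0133). Each injured sample lay below each sham sample, and its difference between the injuries was -1.14 (edgeR adjusted p 0.0386).

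The other 2 that rose were Itgb1, the integrin subunit through which Sema7a can signal, at 0.55 (edgeR adjusted p 0.0318), and Wnt5a, a repulsive Wnt, at 0.61 (edgeR adjusted p 0.0325). In SNA_NAC against Sham_Saline 4 rose, the same 3 and the chemokine Cxcl12 at 0.47 (edgeR adjusted p 0.0328), and 0 fell, beside 2.47% and 0.846% of all genes. Cxcl12 was also higher in the difference between the injuries, at 0.67 (edgeR adjusted p 0.0486). No gene of the list passed after dorsal column injury, with NAC against saline, or with peroxide (edgeR; unadjusted p under 0.05 for 3, 1 and 4 of 33).

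Intracellular effectors formed a list of 61 genes, all in the table. After sciatic axotomy 3 rose, beside 2.16% of all genes, and 0 fell, beside 0.572% (edgeR), and the median was -0.07. Of these, Ptk2 (focal adhesion kinase) rose by 0.43 (edgeR adjusted p 0.0132) and Myo10, a myosin of filopodia, by 0.52 (edgeR adjusted p 0.0195). In SNA_NAC against Sham_Saline these 3 and the protein kinase gene Rock2 rose, beside 2.47% of all genes, Rock2 at 0.75 (edgeR adjusted p 0.0320).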

How the data were processed

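RNA sequencing counts per gene and FPKM values per feature were deposited by the authors for 18 samples, and both tables were matched to the samples by column name, with 0 columns left over. The deposited count table holds whole, unnormalized counts for 15730 genes; the FPKM table deposited by the authors covers 45904 features and was used for levels between genes and for members without counts. Per the submitters' processing notes, TopHat2 2.0.12, Bowtie2 2.2.3, SAMtools 0.1.19, HTSeq 0.6.0, edgeR 3.8.6, limma 3.22.7 and R 3.1.1 were used with the build mm10; their roles and the strand setting are not given in the sources used here. Libraries were made with a stranded mRNA kit and sequenced from one end, per the labels' protocols. Efna3, Unc5a, Epha1, Plxna1 and Sema4c overlap a gene on the other strand and Ntng2 one on the same strand in GENCODE M21 (GRCm38), so their counts are uncertain.

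The quasi-likelihood test of edgeR 4.0.16 (R 4.3.3; glmQLFit and glmQLFTest) was run on the counts after filterByExpr and TMM scaling. All 18 samples of the 6 groups entered 1 fit over 15730 genes, with Benjamini-Hochberg adjustment over these genes and a threshold of 0.05. The filter removed no gene, so the alternative with no filter repeats this fit. The SE of a log2 fold change is its size divided by the square root of F, and the common biological coefficient of variation was 17.4%. FPKM features without counts were tested with limma 3.58.1 on log2(FPKM + 1). Replicates were pools of different mice, so p-values measure the spread between pools. That spread was estimated over all 6 groups together, though the median SD of guidance genes was 0.413 in Sham_Saline and 0.136 in LAM. Comparisons with Sham_Saline were thus judged against a shared spread, not against that of Sham_Saline alone. With 3 samples against 3 an exact permutation test cannot go below 0.1. Counts per sample ran from 6472476 to 42435331 and reads carry no molecular identifiers. Some of the fits were also run on simulated counts with known fold changes. These were drawn with no GC trend, no outlying sample and the same spread in each group. That simulation therefore does not test the fits under those features of the data. Alternatives were DESeq2 1.42.0, RLE factors, at least 10 counts per sample, no filter, the replicate number as a block, per-sample offsets for the GC share and length of the longest transcript (splines, 5 degrees of freedom), both together, only the groups of a comparison, and leaving out each sample.

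The replicate number in the labels equals the sequencing lane, so same-numbered samples share a lane, though they are different mice. Their deviations from the group means had mean correlations from -0.36 (SNA_NAC with Sham_Saline) to 0.31 (Sham_Saline with LAM), and all 3 pairs were above 0.1 only in the last comparison. Genes were named by a rule: those that passed in any comparison, the 4 smallest p in the sciatic comparison and the 2 smallest in each other one, and the highest-level gene of each of 13 families; listed pathway genes were named where they passed, and Plxna2 and Plxna4 as known partners of Sema6a. The members, lists and tests were chosen with earlier results of these data known. Figures were drawn with matplotlib 3.10.9. The values of 1 gene of the effector list are not reported here.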

Additional observations from a re-analysis of the deposited data

Results flagged for a closer look

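Sema6a responded differently to the 2 injuries, by a test of the difference itself: the change after sciatic axotomy minus the change after dorsal column injury was 2.05 on the log2 scale (SE 0.19, edgeR adjusted p 4.34e-05). The 3 SNA_Saline samples lay above the 3 Sham_Saline samples, whereas DCA and LAM overlapped. Sema6a was 0.72 higher in Sham_Saline than in LAM (edgeR adjusted p 0.0599), so the 2 controls did not start from equal estimates.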

How the results depend on the processing

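Sema6a kept its direction and call after sciatic axotomy with saline (14 alternatives) or NAC (14) and in the difference between injuries (20). These include the alternative with no filter, which repeats the main fit. The number of guidance genes that passed after sciatic axotomy was 2, beside 2.73% of all genes. It was 5 with DESeq2 (beside 5.49%), 6 with offsets for GC share and length (beside 7.44%) and 1 with only the groups of the comparison. Leaving out 1 sample gave 1 to 15. For SNA_NAC against Sham_Saline 2 (beside 3.32%) became 7 with DESeq2 (beside 7.77%) and 7 with the offsets (beside 7.79%). It was 1 with only those groups and 1 to 35 without 1 sample. For Sham_Saline against LAM 0 became 9 with DESeq2 (beside 6.88%) and 1 with the offsets (beside 0.165%), with 0 to 30 without 1 sample. For the difference between injuries 1 became 10 (beside 10.4%) and 2 (beside 5.11%), with 1 to 22 without 1 sample. Each of these upper ends was reached without Sham_Saline replicate 1, where 16.2%, 37.3%, 31.8% and 29.2% of all genes passed. Shares over all genes are not given here for the lower ends or for the fits with only the groups compared. Those counts are not read as a result. Dorsal column injury, NAC against saline and peroxide gave 0 in every alternative run. The cause was not tested. In the sciatic comparison the estimate of Sema4f was -0.045 and 0.39 with the offsets, and that of Plxna2 was -0.15 and 0.16 without Sham_Saline replicate 1.

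The replicate block, which is also a block for the sequencing lane, gave 2 after sciatic axotomy, 2 for SNA_NAC against Sham_Saline, 1 for the difference and 0 elsewhere, the counts found without it. The replicate block with the GC and length offsets gave 7, 6 and 2, and 1 for Sham_Saline against LAM. Over all genes the shares with the block and the offsets together were 6.44%, 7.2%, 4.08% and 0.146%. Shares with the block alone are not given here, so its counts are not read as a result.

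Depth limits low genes most: 54 of the 66 guidance genes had at least 10 counts in every sample, and Slit3 had as few as 3. Sema3f passed after sciatic axotomy with DESeq2, with the offsets with or without the block, and without Sham_Saline replicate 1; Plxnd1 passed with DESeq2 and without Sham_Saline replicate 1 or SNA_Saline replicate 3.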

Other observations

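Family members with FPKM values but no counts were tested apart, among 9051 such features. Dcc, the attractive netrin receptor, Robo3, Sema3a, Efna4 and Epha8 did not pass in any comparison (limma, smallest adjusted p 0.479), nor did the second features of Ntng1 and Efna5. For Efna5 the FPKM values departed from the counts, with an SD of 0.303 on the log2 scale between samples, so its 2 tables do not hold the same reads.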
